A study of Homo sapiens with 6 samples.

Results

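The 10 genes described here encode the best-known members of the BCL2 family, the proteins that set the mitochondrial threshold for apoptosis. They were taken by gene symbol, with earlier results of these data known, and make up 10 of the 46427 genes in the deposited table. BCL2, BCL2L1 and MCL1 encode survival proteins. BAX and BAK1 encode the effectors, and BID, BBC3, PMAIP1, BCL2L11 and BIK encode BH3-only proteins. All 10 passed the filter on low counts and were tested.

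The family controls whether the outer mitochondrial membrane stays intact. Activated BAX and BAK1 assemble into pores that release cytochrome c, which starts the caspase cascade through the apoptosome, whereas BCL2, BCL-xL (from BCL2L1) and MCL1 bind and hold the effectors and their activators in check. BH3-only proteins respond to stress and either occupy the groove of the survival proteins or engage the effectors directly, and many breast cancer cells depend on MCL1 or BCL-xL to stay alive.

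The RNA came from MDA-MB-231, an established human breast cancer cell line of metastatic origin labelled wild type, grown in low-glucose DMEM with serum. Cells of 3 libraries were treated with control-siRNA and cells of 3 libraries with TAZ-siRNA, a siGENOME reagent against WWTR1, the gene that encodes the Hippo pathway coactivator TAZ. TAZ-siRNA was delivered with the lipid reagent DharmaFECT4. The comparison asks how loss of TAZ mRNA changes expression in these cells. It covers 1 cell line and 1 reagent against WWTR1, so other effects of that reagent cannot be told apart from those of TAZ loss. Per the methods, the 3 libraries of a group came from separate cell preparations, and p-values measure the spread between these preparations.

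WWTR1 itself measured 192, 189.7 and 190.0 normalized CPM (counts relative to the TMM-adjusted library size) in the control-siRNA libraries, against 17.3, 17.0 and 15.1 normalized CPM in the TAZ-siRNA libraries. The log2 fold change was -3.53 (SE 0.061, adjusted p = 2.5e-10 by edgeR), so every library matched its label. Total counts ran from 48307548 to 71749634 per library, and 3 counts, the limit that a count of 0 allows, corresponded to 0.0418 to 0.0621 CPM, for counting error only. Over all genes, TAZ-siRNA replicate 3 lay apart from the others on the second principal component (18.2% of the variance), at -33.8 against -3.97 to 19.3. Control-siRNA replicate 3, at -3.97, was also the lowest of its group, against 1.41 and 11.1. Values without TAZ-siRNA replicate 3 are given where a result depends on it. VIM (3611 to 3922 TPM, a level scaled for transcript length and library), KRT8 and KRT18 were high and ESR1 was at most 0.0295 TPM, as is known for this line, although EPCAM (1.14 to 2.25 TPM) and GATA3 (4.61 to 7.62 TPM) were above 0. Of 11 markers of leukocytes, endothelium and fibroblasts, 6 stayed under 1 TPM in every library and 3 of those (PTPRC, CD3E, DCN) had no count. Their summed level was 6.49 to 7.19 TPM with control-siRNA and 8.07 to 10.4 TPM with TAZ-siRNA, with COL1A1 at a log2 fold change of 0.42 (edgeR adjusted p = 0.0070), and their part in the results was not tested. In bulk RNA, fewer cells of a type and less RNA per cell cannot be told apart.

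In response to TAZ knockdown, the mRNA levels of MCL1, PMAIP1 and BCL2L11 rose and that of BCL2L1 fell, while the other 6 members did not pass the test. These 4 of 10 members stand against 22.1% of all 16966 genes tested, of which 11.9% were called higher and 10.2% lower. A gene was called at an edgeR adjusted p under 0.05, adjusted over all genes tested. The changes were moderate, from 0.846-fold for BCL2L1 to 1.35-fold for MCL1 and PMAIP1. The median log2 fold change of the 10 members was 0.23, against -0.01 for all genes tested, with 7 members above 0 and 3 below. The libraries of both groups did not overlap for 5 members, 4 higher and 1 lower, against 39.6% of all genes (20.0% higher and 19.6% lower). Without TAZ-siRNA replicate 3, 5 members were called, BCL2 in addition, beside 5928 of 17585 genes tested.

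**Figure D1:**
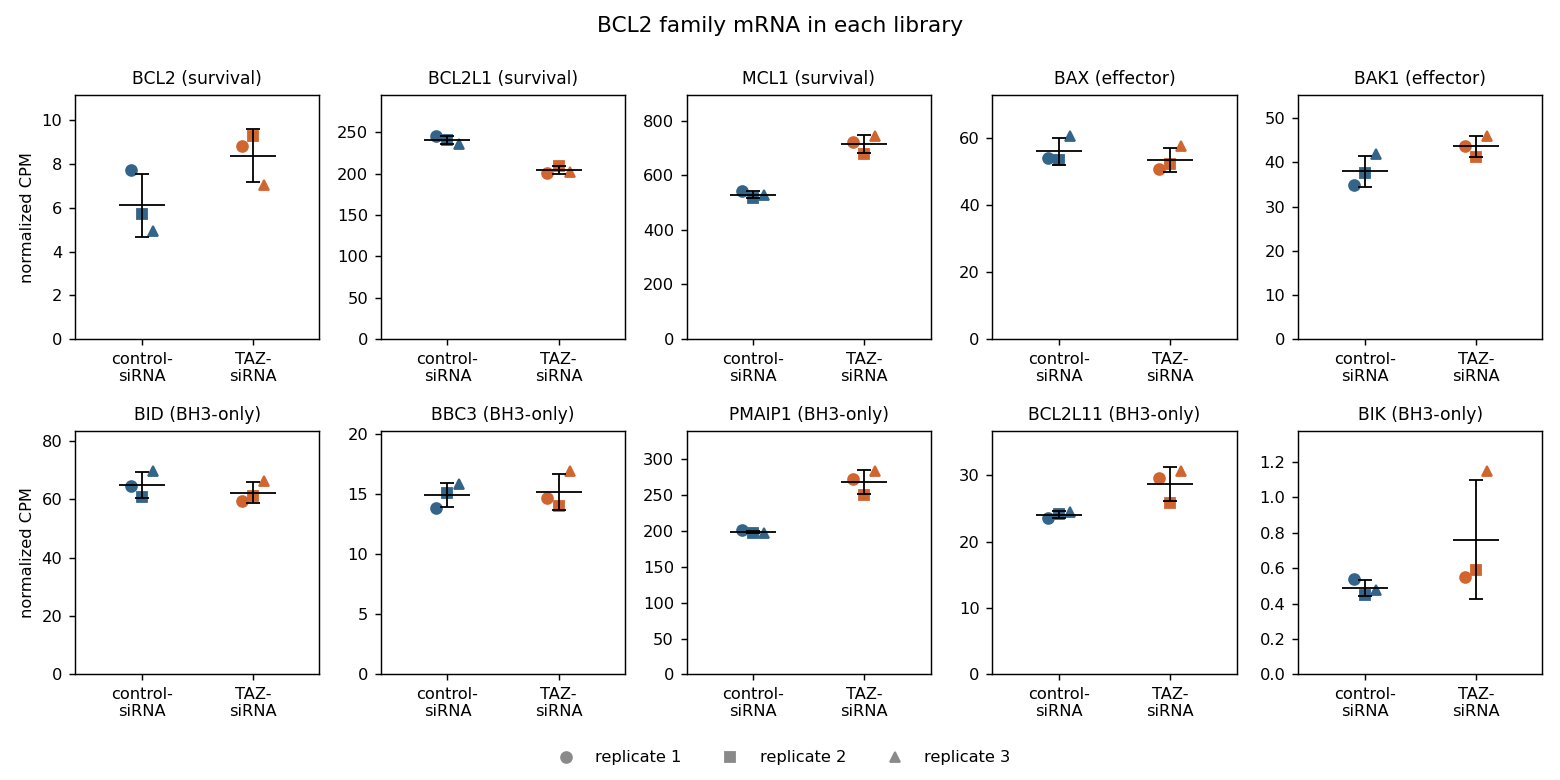
Normalized CPM of the 10 members in each library (points; symbols mark the replicate number), with the mean (long bar) and SD (short caps) of each group of 3, on axes that start at 0. The groups separate for BCL2L1, MCL1, PMAIP1, BCL2L11 and BIK, and for BIK 1 TAZ-siRNA library lies far above the other 5.

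Among the survival genes, MCL1 rose, BCL2L1 fell and BCL2 did not pass the test. MCL1, a short-lived survival protein that sequesters BAK1 and BIM, lies at chr1:150574551-150579738 on the minus strand (GRCh38, from the deposited transcript table). It measured 542, 519 and 527 normalized CPM with control-siRNA and 724, 679 and 745 with TAZ-siRNA. The lowest TAZ-siRNA library lay above the highest control-siRNA library. The means were 529 ± 11.8 and 716 ± 33.5 normalized CPM (SD, n = 3 each), a 1.35-fold rise (log2 fold change 0.44, SE 0.059, 95% interval 0.31 to 0.57, edgeR adjusted p = 7.6e-04). Without TAZ-siRNA replicate 3 the log2 fold change was 0.41. An exact permutation test over the 6 libraries, two-sided, gave p = 0.1, the smallest it can give for 3 against 3. A neighbouring antisense-annotated gene on the same strand, ADAMTSL4-AS1, touches the end of MCL1 and held only 7 to 19 counts per library.

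BCL2L1, at chr20:31664452-31723963 on the minus strand, encodes BCL-xL and, by alternative splicing, the shorter BCL-xS. It measured 246, 241 and 236 normalized CPM with control-siRNA and 201, 209.7 and 202 with TAZ-siRNA. All TAZ-siRNA libraries lay below all control-siRNA libraries, and the spread within each group was small. The means were 241 ± 4.70 and 204 ± 4.90 normalized CPM (SD, n = 3 each), giving 0.846-fold (log2 fold change -0.24, SE 0.048, 95% interval -0.35 to -0.13, edgeR adjusted p = 0.0059; exact permutation p = 0.1). BCL2L1 was the only member called lower, and it was called in all 16 alternative analyses, among them the one without TAZ-siRNA replicate 3 (log2 fold change -0.23). The opposite-strand gene ABALON, inside the BCL2L1 span, had 0 to 120 counts and BCL2L1-AS1 0 to 3, against 10340 or more for BCL2L1. Whether the counting used strand is not stated in the sources used here.

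Promoter sequences are shown for BCL2L1, PMAIP1 and BCL2L11, the called members for which one was matched, since these genes moved in both directions. RefSeq promoter windows (GRCh38.p14) of 300 bases, 250 before and 50 after a start site, matched 8 of the 10 members with 13 windows, and not MCL1 or BIK. The 250 bases before the start are printed, 5′ to 3′ on the strand of the gene, with motif matches on either strand in capitals. For BCL2L1 the window with a match lies at chr20:31723964-31724213 on the minus strand, and the capitals mark TGACG, the core of the ATF and CREB site.
BCL2L1: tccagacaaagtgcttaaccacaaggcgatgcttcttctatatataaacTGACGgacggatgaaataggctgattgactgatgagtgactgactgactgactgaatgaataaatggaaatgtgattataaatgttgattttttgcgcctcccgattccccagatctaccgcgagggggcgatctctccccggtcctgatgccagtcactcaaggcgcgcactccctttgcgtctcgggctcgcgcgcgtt

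BCL2, the founding survival gene of the family, lies at chr18:63123346-63320280 on the minus strand and was the least abundant of the survival members. It measured 7.72, 5.74 and 4.92 normalized CPM with control-siRNA and 8.85, 9.29 and 7.04 with TAZ-siRNA. The groups overlapped, as the highest control-siRNA library (replicate 1) exceeded the lowest TAZ-siRNA library (replicate 3). The means were 6.13 ± 1.44 and 8.39 ± 1.19 normalized CPM (SD, n = 3 each), with a log2 fold change of 0.45 (SE 0.16, 95% interval 0.08 to 0.81, edgeR adjusted p = 0.0786; exact permutation p = 0.2). Its estimated log2 fold change was close to that of MCL1, but its SE was larger. The adjusted p was 0.0278 with DESeq2 and, by edgeR, 0.0223 when control-siRNA replicate 1 was left out and 0.0172 when TAZ-siRNA replicate 3 was.

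Neither effector passed the test. BAX, at chr19:48954825-48961798 on the plus strand, measured 53.8, 53.3 and 60.5 normalized CPM with control-siRNA and 50.5, 52.2 and 57.5 with TAZ-siRNA, with overlapping groups. Its log2 fold change was -0.06 (SE 0.068, 95% interval -0.22 to 0.09, edgeR adjusted p = 0.542). It ran from -0.12 without TAZ-siRNA replicate 3 to -0.0052 without control-siRNA replicate 3, and was above 0 in 4 of the 16 alternatives, such as 0.0539 with counts corrected for GC content and length. BAK1, at chr6:33572552-33580296 on the minus strand, measured 34.8, 37.5 and 41.8 normalized CPM with control-siRNA and 43.7, 41.2 and 46.0 with TAZ-siRNA. In normalized CPM, only TAZ-siRNA replicate 2 lay below a control-siRNA library, replicate 3. On the deposited TPM scale the BAK1 groups did not overlap (control-siRNA 35.2 to 40.6 TPM, TAZ-siRNA 43.5 to 46.8 TPM). The means were 38.1 ± 3.53 and 43.7 ± 2.40 normalized CPM (SD, n = 3 each), with a log2 fold change of 0.20 (SE 0.074, 95% interval 0.04 to 0.36, edgeR adjusted p = 0.0773; exact permutation p = 0.2). Of the effectors, 0 were called by edgeR, DESeq2 or limma, and 1 of 2 had an unadjusted edgeR p under 0.05, against 35.8% of all genes. BAK1 did pass without control-siRNA replicate 3 (edgeR adjusted p = 0.0416), with counts corrected for GC content and gene length (0.0294), and without normalization factors (0.0438). The processed pseudogene BAK1P1 held 117 to 160 counts per library, and BAK1P2 none, so reads shared with BAK1 (2031 to 3189 counts) may have been split by the counting.

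Among the BH3-only genes, PMAIP1 and BCL2L11 rose and BID, BBC3 and BIK did not pass the test. PMAIP1 encodes NOXA, which binds MCL1 with high preference and promotes its degradation. It lies at chr18:59899996-59904305 on the plus strand. PMAIP1 measured 201, 197 and 198 normalized CPM with control-siRNA and 272, 249.6 and 283 with TAZ-siRNA. Each TAZ-siRNA library lay above every control-siRNA library, and the control-siRNA libraries were nearly equal. The means were 199 ± 2.02 and 268 ± 17.1 normalized CPM (SD, n = 3 each), a 1.35-fold rise (log2 fold change 0.43, SE 0.057, 95% interval 0.31 to 0.56, edgeR adjusted p = 6.5e-04; exact permutation p = 0.1). This was the smallest adjusted p among the members, and without TAZ-siRNA replicate 3 the log2 fold change was 0.40. Its promoter lies at chr18:59899746-59899995 on the plus strand, and the capitals mark CGTCA, the ATF and CREB core read on the other strand.
PMAIP1: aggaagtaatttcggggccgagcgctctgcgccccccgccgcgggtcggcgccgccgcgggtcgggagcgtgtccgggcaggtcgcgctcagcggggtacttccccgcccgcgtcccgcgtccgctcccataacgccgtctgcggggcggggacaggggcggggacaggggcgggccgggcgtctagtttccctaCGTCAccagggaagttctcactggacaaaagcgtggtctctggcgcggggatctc

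BCL2L11 encodes BIM, an activator that can bind all survival proteins of the family. It lies at chr2:111120914-111168445 on the plus strand. It measured 23.5, 24.2 and 24.4 normalized CPM with control-siRNA and 29.6, 25.8 and 30.6 with TAZ-siRNA. The groups did not overlap, although TAZ-siRNA replicate 2 came close to the control-siRNA libraries. The means were 24.1 ± 0.491 and 28.7 ± 2.50 normalized CPM (SD, n = 3 each), a 1.19-fold rise (log2 fold change 0.25, SE 0.070, 95% interval 0.10 to 0.41, edgeR adjusted p = 0.0265; exact permutation p = 0.1). This call was less firm than the other 3: it held in 8 of 16 alternatives. Correcting the counts for GC content and gene length ended it (0.15 on the log2 scale, edgeR adjusted p = 0.200), as did limma (0.21 with adjusted p = 0.0885 on log2(FPKM + 1), and 0.25 with 0.0768 on log2(FPKM + 0.1)). Leaving out control-siRNA replicate 1, 2 or 3 or TAZ-siRNA replicate 1 also ended it (edgeR adjusted p = 0.101, 0.0935, 0.0732 and 0.108 in that order), with log2 fold changes of 0.23 to 0.27 close to that over all 6 libraries. Its promoter lies at chr2:111120664-111120913 on the plus strand, and the capitals mark the FOXO motif GTAAACA.
BCL2L11: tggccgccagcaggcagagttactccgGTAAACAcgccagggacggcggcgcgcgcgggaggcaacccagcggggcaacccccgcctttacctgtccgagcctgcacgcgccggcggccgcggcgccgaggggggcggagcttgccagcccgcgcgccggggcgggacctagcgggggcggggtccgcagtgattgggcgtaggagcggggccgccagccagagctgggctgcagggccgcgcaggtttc

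BID, which is cleaved by caspase-8 and links death receptors to mitochondria, lies at chr22:17734138-17774665 on the minus strand. It measured 64.6, 60.7 and 69.6 normalized CPM with control-siRNA and 59.3, 61.2 and 66.2 with TAZ-siRNA. The groups overlapped over most of their range. Its log2 fold change was -0.06 (SE 0.064, 95% interval -0.20 to 0.08, edgeR adjusted p = 0.539). It was -0.10 without TAZ-siRNA replicate 3, -0.11 without control-siRNA replicate 2 and -0.010 without control-siRNA replicate 3. The microRNA gene MIR3198-1, inside BID, held 0 to 2 counts per library. BBC3 encodes PUMA, a strong inducer of apoptosis, at chr19:47220822-47232998 on the minus strand, and measured 13.8, 15.0 and 15.8 normalized CPM with control-siRNA and 14.6, 14.0 and 16.9 with TAZ-siRNA. The groups were interleaved. Its log2 fold change was 0.03 (SE 0.088, 95% interval -0.17 to 0.22, edgeR adjusted p = 0.858), and -0.0519 without TAZ-siRNA replicate 3. Its sign changed in 4 of the 16 alternatives. MIR3191, inside BBC3 on the same strand, held 5 to 12 counts per library, and MIR3190, on the other strand, had no count. For BAX, BID and BBC3 these intervals do not reach the changes measured for MCL1 or PMAIP1 on the log2 scale.

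BIK, whose BH3-only product resides at the endoplasmic reticulum, lies at chr22:43110750-43129712 on the plus strand and had the fewest counts of the members. Its raw counts were 36, 28 and 23 with control-siRNA and 40, 29 and 64 with TAZ-siRNA, or 0.54, 0.45 and 0.47 against 0.55, 0.59 and 1.15 normalized CPM. The groups did not overlap, but 1 library, TAZ-siRNA replicate 3, carried most of the difference. The log2 fold change was 0.63 (SE 0.32, 95% interval -0.08 to 1.34, edgeR adjusted p = 0.189) and 0.22 without TAZ-siRNA replicate 3.

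**Figure D2:**
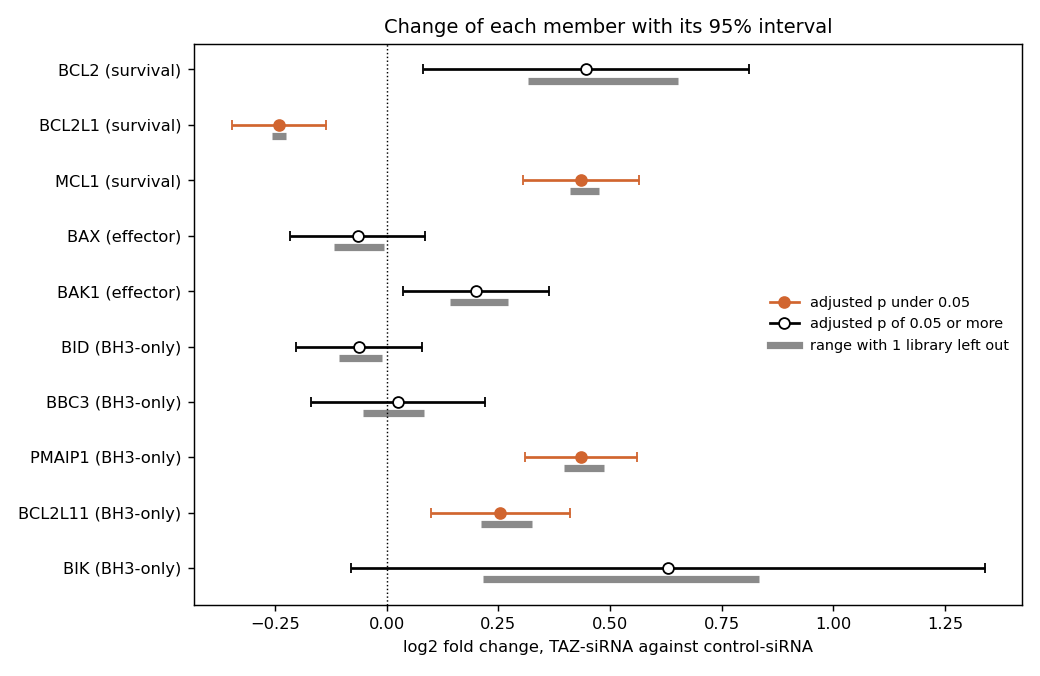
Log2 fold change of each member, TAZ-siRNA against control-siRNA (points), with its 95% interval from edgeR (thin bars) and the range when each of the 6 libraries is left out in turn (grey bars). Filled orange points have an adjusted p under 0.05; MCL1 and PMAIP1 sit at 0.44 and 0.43, and BCL2L1 at -0.24.

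Levels were compared between genes per transcript length, on the deposited TPM scale. In both groups the order was MCL1, PMAIP1, BCL2L1, BAX, BID, BAK1, BBC3, BCL2L11, BCL2 and BIK. MCL1 stood at 292 ± 10.3 TPM with control-siRNA and 410.1 ± 15.2 TPM with TAZ-siRNA (SD, n = 3 each). BIK stood at the other end, at 1.09 ± 0.135 and 1.77 ± 0.691 TPM. With control-siRNA, PMAIP1 (208 to 219 TPM) and BCL2L1 (197 to 215 TPM) overlapped, and all other neighbours in the order were separate. With TAZ-siRNA, PMAIP1 (286 to 309.6 TPM) and BCL2L1 (170.4 to 191 TPM) no longer overlapped, and only BCL2 (2.34 to 3.27 TPM) and BIK (1.32 to 2.56 TPM) did. BAX had a slightly higher mean TPM with TAZ-siRNA (112 ± 2.43) than with control-siRNA (108 ± 4.31), opposite in sign to its normalized CPM, which has no length term.

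**Figure D3:**
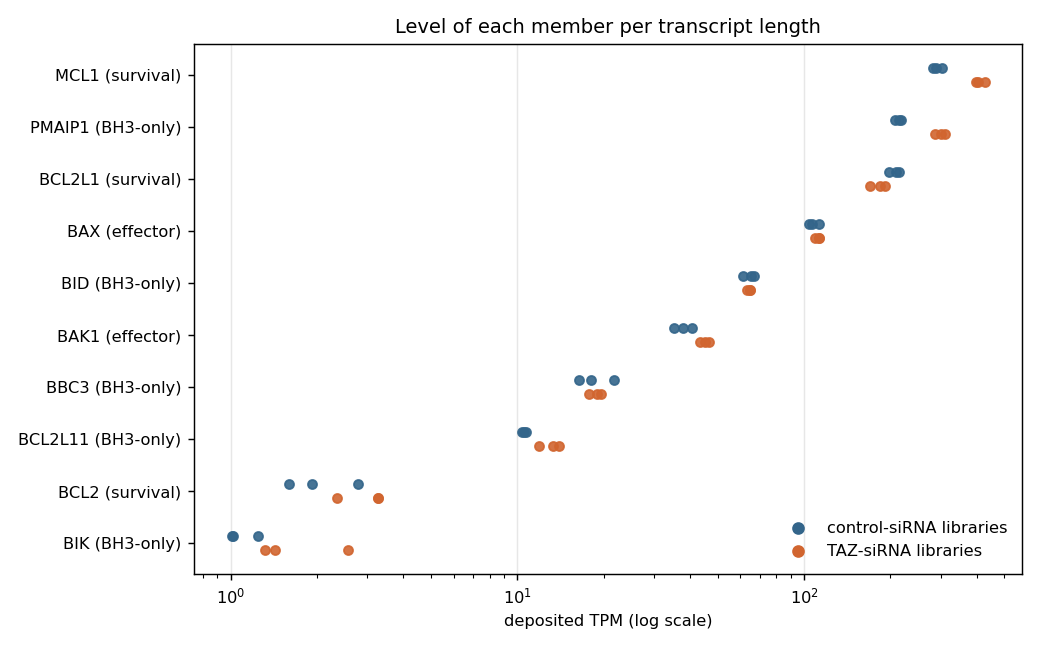
Deposited TPM of each member in the 3 control-siRNA and 3 TAZ-siRNA libraries on a log axis, ordered by level. The members span from 1.01 TPM for BIK to 427 TPM for MCL1, and PMAIP1 and BCL2L1 overlap with control-siRNA but not with TAZ-siRNA.

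Ratios between the 3 most abundant members were computed after their values had been seen and carry no test. The ratio of PMAIP1 to MCL1 in TPM was 0.733 ± 0.0106 with control-siRNA and 0.729 ± 0.0128 with TAZ-siRNA (SD, n = 3 each), so these genes, whose products bind each other, kept nearly the same proportion in all 6 libraries. The ratio of MCL1 to BCL2L1 was 1.41 ± 0.0263 with control-siRNA and 2.26 ± 0.157 with TAZ-siRNA, and that of PMAIP1 to BCL2L1 was 1.03 ± 0.0176 and 1.65 ± 0.138. Neither of these ratios overlapped between the groups. MCL1 made up 58.2 ± 0.467% of the summed TPM of the survival members with control-siRNA and 69.0 ± 1.55% with TAZ-siRNA. PMAIP1 made up 69.3 ± 1.57% and 75.3 ± 0.634% of the BH3-only sum. The ratio of BAX to BAK1 was 2.86 ± 0.158 and 2.48 ± 0.140.

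The summed TPM was 501 ± 19.4 with control-siRNA and 595 ± 18.2 with TAZ-siRNA for the survival members, 146 ± 6.43 and 157 ± 1.26 for the effectors, and 309 ± 3.10 and 397 ± 12.9 for the BH3-only members (SD, n = 3 each). All 3 sums were higher in every TAZ-siRNA library than in any control-siRNA library, the effector sum by the narrowest gap (153 against 156 TPM). In normalized CPM, which has no length term, the effector sums overlapped (control-siRNA 88.6 to 102, TAZ-siRNA 93.4 to 103), while the survival and BH3-only sums remained apart. The survival members held 52.4 ± 1.19% of the sum over all 10 members with control-siRNA and 51.8 ± 0.860% with TAZ-siRNA, and these shares overlapped between the groups.

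**Figure D4:**
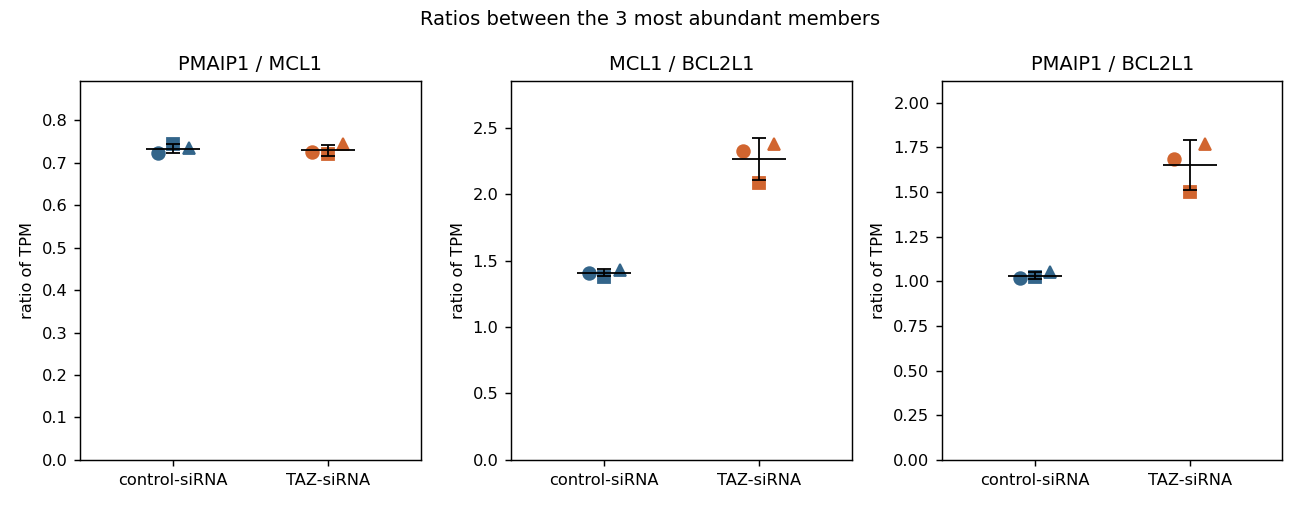
Ratios of deposited TPM between PMAIP1, MCL1 and BCL2L1 in each library (points), with the mean and SD of each group of 3. PMAIP1 to MCL1 stays between 0.720 and 0.744 in all 6 libraries, whereas both ratios to BCL2L1 are higher in every TAZ-siRNA library.

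The deposited transcript counts, which the authors' software estimated from shared reads, were read as a description only. Among transcripts with a mean of 10 counts or more in genes with several transcripts, the share within the gene did not overlap between the groups for 14 of 61 transcripts of the members and for 11.0% of all 65249 transcripts. Of the 14, 5 were of BAX, 3 each of BCL2L1 and BCL2L11, 2 of MCL1 and 1 of BID. MCL1 was nearly all variant 1, which encodes the full-length protein, at 94.8 ± 0.664% of its transcript counts with control-siRNA and 92.5 ± 1.33% with TAZ-siRNA (SD, n = 3 each). Variant 2, which encodes the shorter MCL1 protein, took 4.86 ± 0.750% and 6.66 ± 1.08%, and these groups did not overlap. For BCL2L1, the share of variant 1, a BCL-xL transcript, was 30.9 ± 2.60% and 33.8 ± 2.51%, and that of variant 2, the BCL-xS transcript, was 7.21 ± 1.30% and 6.24 ± 0.766%. Both shares overlapped between the groups. Variant 3 of BCL2L1 took 24.9 ± 1.81% and 30.1 ± 1.65%, and variant 9 took 10.2 ± 3.67% and 6.75 ± 1.23%, both without overlap. BAX was spread over 10 listed transcripts, with the alpha form at 11.8 ± 1.50% and 18.4 ± 4.40% and the beta form at 43.0 ± 2.24% and 36.0 ± 3.89%, without overlap for either. PMAIP1 was mostly variant 6 (85.4 ± 1.28% and 84.0 ± 1.71%). Estimates for BBC3 were unstable, since its variant 4 took 99.7% of the counts in control-siRNA replicate 1 and 27.6% in replicate 3. BCL2L11 had 36 of 38 listed transcripts with a count but only 11 with a count in every library.

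TAZ reaches DNA through TEAD factors, so the TEAD motif GGAATG was searched in the 300-base windows on both strands. It was present in 14.0% of all 35116 promoter windows and in 1 of the 13 member windows, that of BBC3, which did not pass the test. TGACG, the core of the ATF and CREB site, was present in 24.6% of all windows and in 4 member windows, of BAX, BCL2, BCL2L1 and PMAIP1. In the sequences printed above it starts 55 bases before the start site in PMAIP1 and 201 before it in BCL2L1, the former called higher and the latter lower. The FOXO motif GTAAACA was present in 3.42% of all windows and, among the members, in that of BCL2L11, 223 bases before the start. The AP-1 motif TGANTCA (7.71% of all windows) was present in the window of BBC3. No matches of different motifs shared bases in these windows, and a match describes the letters only.

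The genes whose normalized values followed PMAIP1 most closely over the 6 libraries were NXPE3, TRIB1 and B3GNT5. Their Pearson r of log2 CPM to PMAIP1 was 0.999, 0.999 and 0.998, with 13590 genes of 1 CPM or more on average compared. The 6 libraries form 2 groups, and 30 genes had an r over 0.99, so these values describe the libraries and carry no p.

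Over 6 lists of other pathway genes, 60 of 68 listed genes were tested and 12 were called (20%, against 22.1% of all genes), 7 higher and 5 lower. Their median was 0.01 on the log2 scale. Without TAZ-siRNA replicate 3, 24 of them were called, and without control-siRNA replicate 1, 2 or 3 or TAZ-siRNA replicate 1 or 2 it was 8, 7, 8, 6 and 8, in that order. The calls over all genes moved the same way, from 3749 to 5928 without TAZ-siRNA replicate 3 and to between 1937 and 2687 without any 1 of the others. Of the other BCL2-family and BCL2-like genes, 10 were tested and 1 was called, BOK, a BAX-like gene. BOK fell from 29.3 ± 0.910 to 22.0 ± 1.94 normalized CPM (SD, n = 3 each), a log2 fold change of -0.42 (edgeR adjusted p = 0.0028). The list's median was -0.07. BCL2A1, a further survival gene, had 7 to 33 counts per library and a log2 fold change of -1.16 (edgeR adjusted p = 0.0661), and HRK had no count.

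Downstream of the mitochondria, 3 of 12 apoptosome and caspase genes were called, with a list median of 0.01. CASP6, an executioner caspase, rose with a log2 fold change of 0.23 (edgeR adjusted p = 0.0371) and CASP2 with 0.22 (edgeR adjusted p = 0.0326). The call of CASP6 held in 9 and that of CASP2 in 8 of 16 alternatives. Leaving out control-siRNA replicate 2 or 3 or TAZ-siRNA replicate 1 or 2, and limma on log2(FPKM + 1), ended both. That of CASP6 also ended without control-siRNA replicate 1 and without the filter on low counts, and that of CASP2 in limma on log2(FPKM + 0.1) and under the correction for GC content and length. Over the 16 alternatives the log2 fold change stayed between 0.21 and 0.31 for CASP6 and between 0.16 and 0.27 for CASP2. DFFA, the inhibitor of the caspase-activated DNase, fell from 97.1 ± 4.07 to 72.2 ± 2.18 normalized CPM (log2 fold change -0.43, edgeR adjusted p = 4.0e-04). Cytochrome c (CYCS) had a log2 fold change of -0.02 and APAF1 of 0.24 (edgeR adjusted p = 0.857 and 0.115).

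Of the inhibitor of apoptosis genes, 7 were tested and 2 were called, with a list median of 0.02. BIRC3, which encodes cIAP2, fell from 21.3 ± 2.24 to 10.5 ± 0.886 normalized CPM (SD, n = 3 each), 0.491-fold (log2 fold change -1.03, edgeR adjusted p = 1.1e-04). It had the largest absolute log2 fold change among the 12 called genes of these lists. NAIP rose with a log2 fold change of 0.48 (edgeR adjusted p = 0.0461), a call that held in 6 of 16 alternatives and was lost when any 1 library other than TAZ-siRNA replicate 3 was left out. It was also lost without normalization factors, without the filter on low counts, under the GC content correction and in limma, where its log2 fold change was 0.14 on log2(FPKM + 1). XIAP and BIRC5 (survivin) had log2 fold changes of 0.03 and -0.02 and did not pass the test.

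In the death receptor pathway, 13 genes were tested and 3 were called, with a list median of 0.08. TNFRSF1A, the main TNF receptor, rose with a log2 fold change of 0.23 (edgeR adjusted p = 0.0068), and the kinase RIPK1, which acts below it, rose with 0.22 (edgeR adjusted p = 0.0089). TNFRSF10B, a receptor for TRAIL, fell with a log2 fold change of -0.22 (edgeR adjusted p = 0.0440). This call held in 11 of 16 alternatives, being lost when any 1 library other than TAZ-siRNA replicate 3 was omitted. Over these alternatives the log2 fold change of TNFRSF10B stayed between -0.30 and -0.15, smallest in size without TAZ-siRNA replicate 2. CASP8, which cleaves BID, had a log2 fold change of 0.08 (edgeR adjusted p = 0.235).

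Genes that control turnover of the family or bind it, such as HUWE1, FBXW7 and USP9X for MCL1, gave 0 calls among 10 tested by edgeR, DESeq2 and limma. By edgeR 3 had an unadjusted p under 0.05, against 35.8% of all genes, and the list's median log2 fold change was -0.04. Of 8 transcription factors known to act on the family, FOXO1 rose with a log2 fold change of 0.38 (edgeR adjusted p = 0.0171) and FOXO3 with 0.28 (edgeR adjusted p = 0.0072). MYC fell with -0.30 (edgeR adjusted p = 0.0097), and the list's median was 0.15. The FOXO3 call held in all 16 alternatives, although its log2 fold change was 0.15 when counts were corrected for GC content and length. That of FOXO1 held in 10 and ended under that correction (0.26), in both limma fits, and without control-siRNA replicate 2 or 3 or TAZ-siRNA replicate 1. That of MYC held in 14 and ended without control-siRNA replicate 1 or TAZ-siRNA replicate 1. Over the 16 alternatives the log2 fold change stayed between 0.26 and 0.48 for FOXO1 and between -0.39 and -0.24 for MYC. DDIT3, a stress-response factor, had a log2 fold change of 0.15 (edgeR adjusted p = 0.0516).

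**Figure D5:**
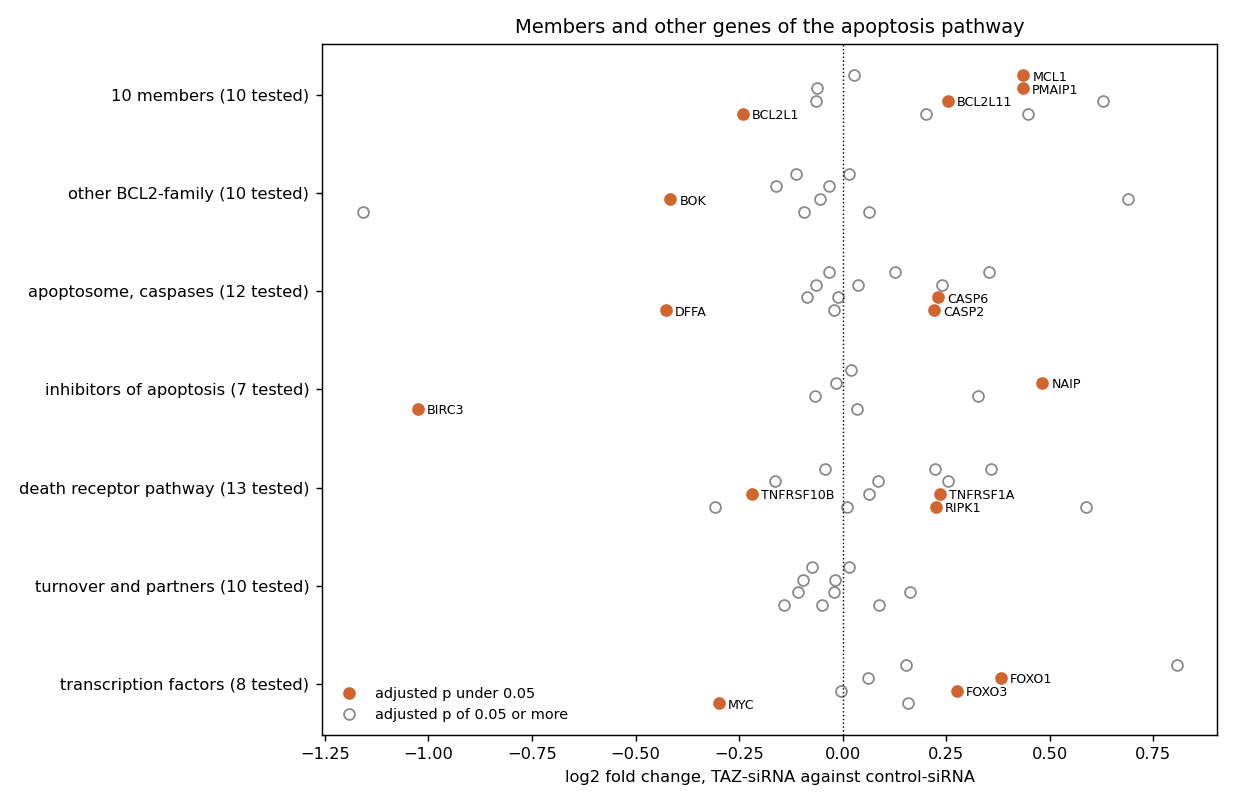
Log2 fold change, TAZ-siRNA against control-siRNA, of the 10 members and of 6 lists of other apoptosis pathway genes (1 point per gene tested; filled and named points have an edgeR adjusted p under 0.05). BIRC3 lies at -1.03 and the called members between -0.24 and 0.44.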

How the data were processed

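RNA of 3 control-siRNA and 3 TAZ-siRNA libraries was prepared with a stranded mRNA kit. Per the study's methods, the authors used HISAT2 (reference GRCh38) for mapping and StringTie for gene and transcript levels, in versions not given in the sources used here. The submitters' processing notes also name Bowtie 0.12.2 and the build mm8, with no role given. The deposited count of each gene and transcript is a whole number, read as the authors' count estimated from coverage. The authors scaled the FPKM values by length and library size, and the TPM values by length and a common total. The sample titles number replicates differently from the columns, and the column numbers, 1 to 3, are used.

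Counts of all genes were compared with edgeR 4.0.16 (R 4.3.3), with TMM normalization (factors 0.978 to 1.02), filterByExpr (minimum count 10), the robust quasi-likelihood test and Benjamini-Hochberg adjustment over 16966 genes. Total counts were 48307548 to 71749634 per library and the biological coefficient of variation was 8.04%. Replicates of a group differed by more than sampling noise (chi-square 6.38 to 38.2 per degree of freedom). Pairs with replicate 3 gave the higher values in both groups. They were 20.3 and 18.5 against 6.38 with control-siRNA, and 27.6 and 38.2 against 10.8 with TAZ-siRNA. Alternatives were DESeq2 1.42.0, upper-quartile or no factors, other filters, the replicate number as a block, a spline correction for GC content and length (values available for 89.7% of genes tested and for all 10 members), limma 3.58.1 on log2 FPKM with a pseudocount of 1 or 0.1, an adjusted p under 0.01, and leaving out each library. On simulated counts with known changes among 16723 genes for this comparison, edgeR recovered 39 of 55 genes changed 1.5-fold, 62 of 75 changed 2-fold and 69 of 70 changed 3-fold, with 8 false calls in 178. Smaller changes were not simulated. Only these genes were changed in the simulation, a far smaller part than the 3749 of 16966 called in the data. Libraries were drawn without a replicate effect, so these rates need not hold for the data.

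Named genes are all 10 members, WWTR1, up to 3 called genes per direction and list with the largest absolute log2 fold change, genes overlapping or named after a member, and the 3 genes most correlated with the member of smallest adjusted p. BCL2A1, HRK, CYCS, APAF1, XIAP, BIRC5, CASP8, HUWE1, FBXW7, USP9X and DDIT3 were named for their role after their values had been seen, as were VIM, KRT8, KRT18, ESR1, EPCAM, GATA3, PTPRC, CD3E, DCN and COL1A1 from the marker lists. The members and lists were chosen with earlier results of these data known. The ratios between members and the motifs other than TEAD were chosen after values had been seen. Some planned genes are not reported here, and protein sequences were not analysed here.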

Additional observations from a re-analysis of the deposited data

How the results depend on the processing

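The calls of BCL2L1, MCL1 and PMAIP1 held in all 16 alternatives per gene, with log2 fold changes of -0.26 to -0.22, 0.39 to 0.48 and 0.40 to 0.49, and BCL2L11 held in 8 (0.14 to 0.33). BCL2 (0.23 to 0.65) and BAK1 (0.14 to 0.27) passed in 5 alternatives each, and BAX, BID, BBC3 and BIK in none. Of 160 values, 152 kept their direction. BAX reversed to 0.0539 under the correction for GC content and length, 0.0021 in limma on log2(FPKM + 1) and 0.0021 on log2(FPKM + 0.1). BBC3 reversed to -0.0349 and -0.0378 in the same limma fits, and ran from -0.0519 to 0.0842 with 1 library left out, lowest without TAZ-siRNA replicate 3 and -0.0248 when control-siRNA replicate 1 was omitted. The cause was not tested.

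Between 3 and 6 members were called, 3 to 5 when a library was left out, with 2 to 4 called higher and 1 called lower. Called pathway genes numbered 12 and were 24 without TAZ-siRNA replicate 3, 6 to 8 without any 1 of the other libraries, and 7 at an adjusted p under 0.01. All genes called numbered 3749, with 5928 when TAZ-siRNA replicate 3 was left out, 1937 to 2687 when any 1 of the others was, and 1720 at an adjusted p under 0.01. Leaving out a library lowers the number of samples. WWTR1 kept its call, at -3.64 to -3.15.

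Over all genes tested, deviations from the group mean correlated little between control-siRNA and TAZ-siRNA libraries of the same number (-0.017, 0.0086 and 0.070). For different numbers the correlations ran from -0.095 to 0.10. The replicate block is among the 16 alternatives, and with it every member had a smaller SE, such as 0.11 against 0.16 for BCL2. Whether libraries of the same number form pairs was not tested. With the replicate block, 6 members were called, 5 of them higher, adding BCL2 (log2 fold change 0.46, edgeR adjusted p = 0.0110) and BAK1 (0.20, edgeR adjusted p = 0.0217), beside 5122 of all genes. Pathway calls with the block were 20, and 20 when counts were also corrected for GC content and length. In the fit with both, BAX reversed to 0.0540. There BCL2L11 (log2 fold change 0.14, edgeR adjusted p = 0.144) and CASP2 lost their calls.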
